A study of Drosophila melanogaster with 2 samples.

Results

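Trl (FBgn0013263), the Drosophila melanogaster gene that encodes the GAGA factor, was examined as a place where the protein CG12744 bound. It is 1 of 13945 protein-coding genes annotated on the 6 main chromosome arms and was chosen from earlier peak values of these same data. Its peaks were selected on position, as every peak with a summit inside the gene or within 5000 bp of it. By that rule 7 of 2758 peaks of the thresholded list lay at Trl, with 14 of 30000 in the pooled list, 12 of 30000 in replicate 2 and 16 of 30000 in replicate 4. CG12744 binding was measured by chromatin immunoprecipitation and sequencing in 1 group of whole embryos, collected from 0 to 24 h of development and of mixed sex. The embryos came from a transgenic line that stably carries CG12744 with GFP at its C terminus, and an antibody to GFP pulled down the tagged protein with sonicated chromatin. There were 2 biological replicates, numbered 2 and 4, and no second condition. Whole embryos of this age range mix all tissues and many stages, so a peak cannot be assigned to a cell type, and a strong peak in few cells cannot be told apart from a weak one in many.

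The GAGA factor is a zinc-finger protein with a BTB/POZ domain, through which it multimerises, and it binds DNA at repeats of GA. It is known for opening promoter chromatin together with remodelling complexes such as NURF, and for its presence at promoters where RNA polymerase II pauses after initiation. Its gene is named Trithorax-like because mutants resemble those of the Trithorax group, which keeps homeotic genes active. Proteins that act beside it, or belong to its family, include other GA-repeat binders and BTB proteins, the remodelling complexes NURF and Brahma, the histone chaperone FACT, and the pausing factors NELF and DSIF.

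The gene lies on the minus strand of chromosome arm 3L, from 14747929 to 14761049 in the dm6 (BDGP6, Release 6) genome, and spans 13121 bp. Its 10 annotated transcripts begin at 4 start sites. The main start at 14757962 serves 7 transcripts, and the starts at 14757779, at 14757336 (below, the proximal start) and at 14761049 (the distal start) serve 1 each. All peak positions below are summits in dm6, counted from 1.

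The DNA under the peaks differed in its base composition and in the short motifs it held. Matches to the 12 motifs described further on, searched on both strands, are in capitals in the sequences that follow, which are given on the plus strand, 5′ to 3′, from the RefSeq copy of the Release 6 genome. The first is the 201 bases centred on the strongest peak at the gene, chr3L:14759405-14759605, shown because its only match is a reversed TATAAA. The second is the same length around the peak upstream of the main start, chr3L:14758200-14758400, shown because it was the only window of the 7 with a match to GAGAG, the core of the GAGA factor's own motif. The third is 30 bases from the summit of the promoter peak, chr3L:14757244-14757273, with its CACTG. The fourth is the longest GA repeat of the peak cluster with 20 bases on each side, chr3L:14757359-14757417, inside the interval of that promoter peak.
summit 14759505: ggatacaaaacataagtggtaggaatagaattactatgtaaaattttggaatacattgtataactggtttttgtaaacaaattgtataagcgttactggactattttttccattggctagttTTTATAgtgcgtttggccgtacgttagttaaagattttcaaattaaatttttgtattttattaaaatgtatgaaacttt
summit 14758300: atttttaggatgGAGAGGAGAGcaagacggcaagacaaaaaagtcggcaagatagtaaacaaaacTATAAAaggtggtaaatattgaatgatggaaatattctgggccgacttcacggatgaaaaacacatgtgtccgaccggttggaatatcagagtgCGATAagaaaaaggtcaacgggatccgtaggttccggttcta
summit 14757245: tttctactcctcctccacgacgcCACTGct
GA repeat: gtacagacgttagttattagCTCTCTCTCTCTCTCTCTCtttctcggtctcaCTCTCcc

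CG12744 peaks at Trl were packed into the 5′ portion of the gene. The 7 thresholded summits ran from 14756095 to 14762413, a stretch of 6318 bp, with gaps of 201, 949, 1055, 1205, 895 and 2013 bp between neighbours. The 8166 bp of the gene nearest its 3′ end, which hold every exon downstream of the 2353 bp intron described below, had no thresholded summit. Of the 7 summits, 6 lay inside the gene and 1 upstream of it. The values that follow are the signal that the authors' peak caller gave each peak, on a scale that the sources used here do not state, and they serve only to describe and rank peaks within a list. Across the thresholded list the signal ran from 68.4 to 1147.69 with a median of 99.1.

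The strongest peak at the gene, at 14759505, lay far from any annotated start. Its signal was 528 in the thresholded list, 289 in replicate 2 and 241 in replicate 4. Those values put it at rank 30 of 2758, at rank 28 in replicate 2 and at rank 33 in replicate 4, so it was among the highest peaks of every list. The replicates placed its summit 11 and 3 bp from the thresholded one. The summit was 1543 bp upstream of the main start and 1544 bp downstream of the distal one, inside the 3233 bp intron 2 of Trl-RF, the only transcript that begins at the distal start. For the other 9 transcripts it was upstream of the gene's start. Its signal was 2.89 times that of the next peak at Trl in the thresholded list, 3.22 times in replicate 2 and 2.70 times in replicate 4. It held 44.8% of the summed thresholded signal of the 7 peaks.

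Most peaks as strong as this one sat at start sites. Of the 30 peaks that ranked as high or higher, 22 had a summit within 500 bp of an annotated start and 8 were farther. The like share of the whole thresholded list is not given here, so these counts do not set strong peaks apart from the rest. A distance of 1543 bp or more was reached by 3 of the 30, the Trl peak included. Its neighbours in rank, the peaks at ranks 29 and 31, had signals of 534 and 504. The peak at rank 33, with a signal of 485, lay in an intron of osa, which encodes a Brahma complex subunit. It was 13953 bp from the osa start and 702 bp from the nearest start of any gene.

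**Figure D1:**
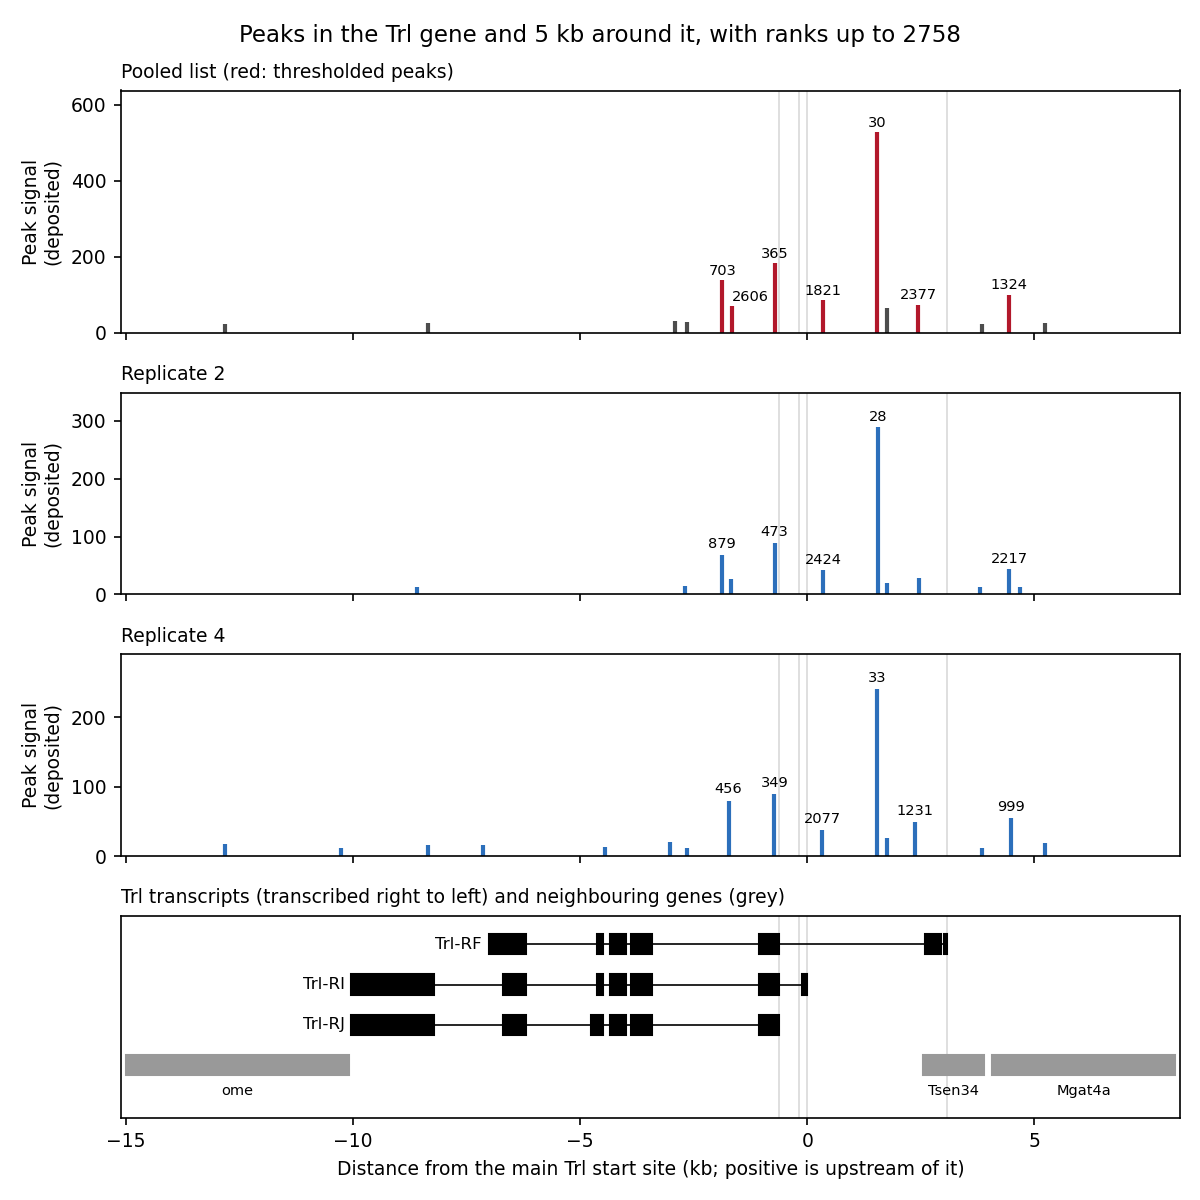
CG12744 peaks at Trl and 5000 bp around it, by distance from the main start (kb, upstream positive). Bars are the authors' peak signal in the pooled list (thresholded peaks in red), replicate 2 and replicate 4, each on its own axis, with ranks above the bars up to rank 2758, start sites as grey lines and transcript models beneath; the peak 1543 bp upstream of the main start was the tallest in each panel.

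A peak also sat at the proximal promoter. The summit at 14757245 was 91 bp downstream of the proximal start, the only one of the 7 within 100 bp of a start of Trl, and lay in 5′ UTR sequence of all 10 transcripts. Its signal was 183 in the thresholded list (rank 365), 89.8 in replicate 2 (rank 473) and 89.2 in replicate 4 (rank 349). The 2 replicates placed it 0 and 4 bp from the thresholded summit, and it ranked among the highest 500 in all of these lists. Upstream of the main start, 338 bp away, was the weaker peak at 14758300, with signals of 85.5 (rank 1821), 42.1 in replicate 2 (rank 2424) and 37.7 in replicate 4 (rank 2077). That start is shared with CG42507, which overlaps Trl on the same strand from 14747929 to 14757962, so the peak cannot be assigned to one of them.

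Downstream, intron 2 of most Trl transcripts held a pair of overlapping peaks that the replicates resolved differently. The intron spans 2353 bp, from 14754551 to 14756903, and is intron 2 in 8 transcripts, intron 3 in Trl-RF and intron 1 in Trl-RJ. The summit at 14756095 had a signal of 138 (rank 703), and that at 14756296, 201 bp away, a signal of 70.6 (rank 2606). Replicate 2 had a peak 2 bp from the first, with a signal of 68.7 (rank 879), and one 1 bp from the second, with 26.8 (rank 5745). Replicate 4 had a single peak between them at 14756231, with a signal of 79.9 (rank 456), 136 bp from the first summit and 65 bp from the second. The count of 7 thresholded peaks thus holds 1 more than the 6 regions left when overlapping intervals are merged.

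The remaining peaks lay towards and beyond the distal start. At 14760400, 649 bp downstream of the distal start and in intron 2 of Trl-RF, the signal was 74.2 (rank 2377), with 28.1 in replicate 2 (rank 5279) and 49.4 in replicate 4 (rank 1231). The replicates differed more at that peak than at most, and their summits were 31 and 59 bp from the thresholded one. At 14762413, 1364 bp upstream of the distal start, the signal was 101 (rank 1324), with 44.0 in replicate 2 (rank 2217) and 54.9 in replicate 4 (rank 999). That summit was nearer to other genes than to Trl. It lay 385 bp inside Mgat4a, in intron 1 of both transcripts of that N-acetylglucosaminyltransferase gene, and 569 bp upstream of the start of Tsen34, which encodes a subunit of the tRNA splicing endonuclease. Tsen34 itself had no thresholded peak within 500 bp of its start, and ome, the next gene on the other side, had none either.

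The replicates ranked 3 of the Trl peaks closely alike and the others less so. Replicate 2 had a peak within 100 bp of each of the 7 summits and replicate 4 of 6, so 6 were matched in both. Over the whole thresholded list 97.5% had a match in replicate 2, 96.9% in replicate 4 and 94.4% in both. The thresholded list was made from the replicates and their pool, so these matches are not independent evidence of binding. Among the 2604 peaks matched in both, the median fold between the 2 replicates' ranks was 1.62. At Trl it was 1.17 at 14758300, 1.18 at 14759505 and 1.36 at 14757245, all below that median. It was 2.22 at 14762413, 4.29 at 14760400 and 12.6 at 14756296, where the replicate 4 peak was the single one shared by the pair. A fold as large as 4.29 was found at 6.61% of matched peaks and one as large as 12.6 at 0.653%. Within the highest 2758 of each replicate list, replicate 2 kept 5 of its peaks at Trl and replicate 4 kept 6.

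**Figure D2:**
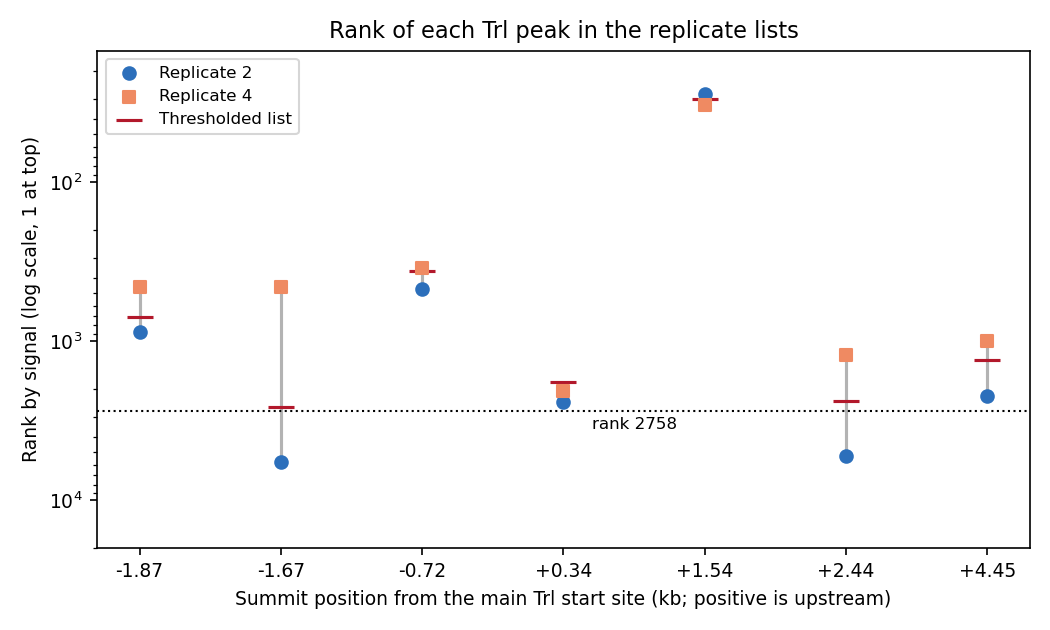
Rank of each thresholded Trl peak (log axis, rank 1 at the top), with dashes for the thresholded list, circles for replicate 2 and squares for replicate 4, in order along the locus but not spaced to scale. The strongest peak had ranks of 28 to 33, and the single replicate 4 peak at rank 456 is drawn for both of the paired peaks at the left.

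The threshold on the list fell between close neighbours at this gene. The weakest peak inside it was that at 14756296, with a signal of 70.6 at rank 2606. Just outside was a pooled peak at 14759708, with a signal of 66.2 at rank 2942, matched by signals of 19.6 in replicate 2 (rank 9939) and 26.8 in replicate 4 (rank 4114). That summit was the last base of a 103 bp interval beside the strongest peak. The other 6 pooled peaks of the window had signals of 23.7 to 31.9 and ranks of 10699 to 18215. The authors' −log10 q was 3.83 at every peak of the thresholded list and so does not separate them.

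Few genes had as many peaks as Trl. A thresholded summit within the gene or 5000 bp of it was found at 36.9% of the 13945 protein-coding genes. There were 7 or more at 15 of them (0.108%, exact 95% binomial interval 0.0602 to 0.177%). The interval covers counting error only and treats genes as independent, although overlapping genes share peaks and the cut at 7 was set by Trl. With each replicate list cut to its highest 2758 peaks, Trl had 6 peaks in replicate 4 and 5 in replicate 2. The share of genes with as many as that was 0.186% in replicate 4 and 0.452% in replicate 2. Both lay above the interval, but the count to reach was lower than 7. The 15 were ush with 11, CG1677, kirre, msn and sbb with 9, CHES-1-like, Hr4 and Raf with 8, and CG14434, CG42507, RapGAP1, Trl, Tsen34, lola and tara with 7. Of these, ush encodes a cofactor of GATA factors, Hr4 a nuclear receptor and lola a BTB transcription factor. CG42507 and Tsen34 overlap Trl and share its peaks, so they add nothing independent to the count. Of the 15, 8 had a peak within 500 bp of one of their starts, against 14.4% of all protein-coding genes. The 15 were picked for having many peaks, so nothing particular to them follows from that count.

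Most of the 15 genes were far longer than Trl. The median length of the 15 was 48405 bp, against 13121 bp for Trl and 2166 bp over all genes, and 11.1% of all genes were as long as Trl or longer. The 3 genes of the 15 that were not longer than Trl were Trl itself and the overlapping CG42507 and Tsen34. Per kb of gene and flanks, Trl had 0.303 peaks, and 38 genes (0.272%) had that density or a higher one. Across the 6 arms, no other stretch of 6318 bp held 7 thresholded summits. That length was the span of the Trl summits themselves, so the comparison was fitted to this gene. With overlapping intervals merged into 2676 regions, Trl kept 6 and its stretch was still the only one of that length with as many. Trl was chosen for its peaks, so these counts describe the gene and carry no test.

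**Figure D3:**
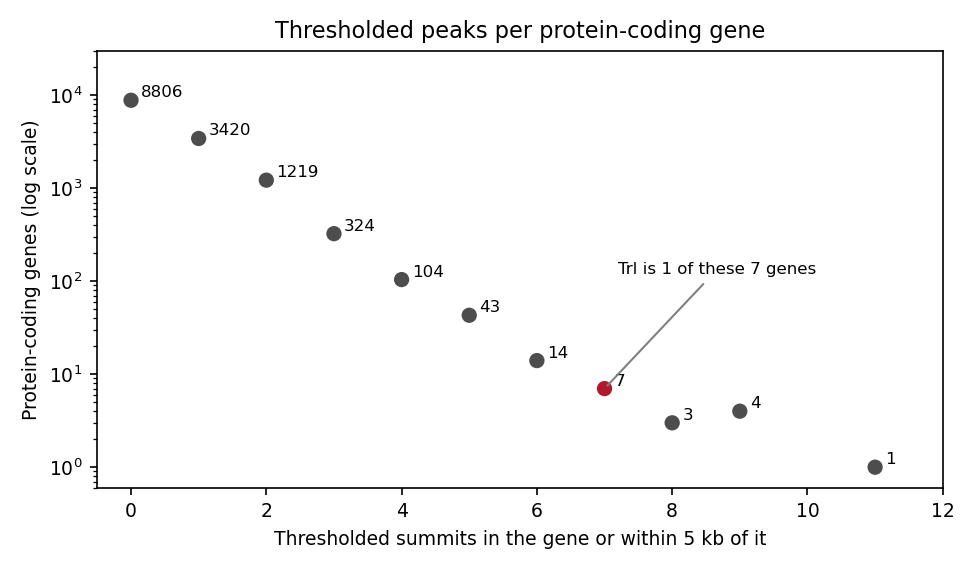
Number of protein-coding genes (vertical, log axis) by the number of thresholded CG12744 summits in the gene or within 5000 bp of it (horizontal). Of 13945 genes, 8806 had none, and Trl (red) was 1 of 15 genes with 7 or more.

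Genes whose promoter peak ranked most like that of Trl stood at few peaks each. Likeness was the summed difference of log10 rank of the highest promoter peak in replicates 2 and 4. It was taken over 1996 genes with a thresholded promoter peak and a promoter peak in both replicate lists, with no match of summits required. The closest were CG14352 and Rab3GAP1, which share a peak (signal 183, rank 363, with ranks of 460 and 360 in replicates 2 and 4) at a summed difference of 0.0256. Next came CG15390 and CG3609, which also share 1 (signal 179, rank 393, with 444 and 356) at 0.0361. Nubp2, with 470 and 323 in the replicates, followed at 0.0364, a value tied by Pss, which shares its peak. With 1 to 3 thresholded peaks in their windows, the first 5 of these had fewer than the 7 at Trl. So had all but 15 of the 13945 protein-coding genes, so this does not set the 5 apart.

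Genes whose products act beside the GAGA factor were then read in the same lists. Of 36 such genes, Trl included, 11 (30.6%, exact 95% interval 16.3 to 48.1%) had a thresholded summit within 500 bp of a start, against 14.4% of all protein-coding genes. Leaving out Trl, the count was 10 of 35 (28.6%, 14.6 to 46.3%). Within the gene and 5000 bp, 28 of 36 (77.8%) had a summit, where the background was 36.9%. The members were longer than most genes, with a median of 5551 bp against 2166 bp, and the part of gene length in these counts was not tested. The list was drawn up with earlier results of these data known, and nothing particular to it follows from the counts.

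Among the DNA-binding relatives, the list held 3 GA-repeat binders. Trl had a thresholded promoter peak but was chosen for its peaks. The others, Clamp and psq (Pipsqueak), had none (all genes, 14.4%). Clamp, which binds GA repeats on the male X chromosome, had promoter peaks at ranks 3706 and 4591 in replicates 2 and 4, and psq (Pipsqueak) at 5309 and 3420, all below the depth of the thresholded list. Of 11 genes of other BTB proteins, 2 (18.2%, exact interval 2.28 to 51.8%) had a thresholded promoter peak, against 14.4% of all genes. One was lola, a regulator of axon growth, with a signal of 139 (rank 689) and ranks of 908 and 552 in the replicates, and an antisense RNA gene also starts within 500 bp of that peak. The other was lolal, a small BTB protein known to interact with the GAGA factor, with a signal of 76.0 (rank 2263) and ranks of 2921 and 2005. The gene br (Broad), by contrast, had no promoter peak in either replicate list.

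Among the genes of NURF, FACT and the Brahma complexes, 5 of 16 had a thresholded promoter peak (all genes, 14.4%), and 13 of 16 had a thresholded peak in the gene or within 5000 bp (36.9%). Of 4 NURF genes only E(bx), which encodes the largest NURF subunit, had a thresholded promoter peak, with a signal of 77.1 (rank 2204) and ranks of 4094 and 1916 in replicates 2 and 4, and mthl14 starts from the same region. Of 2 FACT genes, dre4 (Spt16) had one, with a signal of 150 (rank 596) and ranks of 840 and 460, and Ssrp had none in either replicate. Of 10 Brahma genes, 3 had one. They were brm, the ATPase (signal 108, rank 1180, with 1541 and 918 in the replicates), Bap60 (126, rank 872, with 1135 and 604) and mor (81.1, rank 1979, with 1600 and 2956). Each of these Brahma peaks also lay within 500 bp of a start of another gene, Arl1, CG12096 and Hel89B respectively.

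Pausing factors gave 3 of 6 (50%, exact interval 11.8 to 88.2%), against 14.4% of all genes. The 3 were NELF subunits. Nelf-E had the highest signal of the 36 promoters, 194 (rank 308, with 590 and 195 in replicates 2 and 4), above the 183 of Trl itself, but its peak was shared with the ribosomal protein gene RpL14. Nelf-A had a signal of 119 (rank 972, with 1111 and 1050), and Nelf-B 78.8 (rank 2122, with 3680 and 1557). The Nelf-A peak was shared with CG3337 and the Nelf-B peak with CG12155. TH1, the remaining NELF subunit, had no thresholded promoter peak and a peak in replicate 4 alone (rank 2369), and neither Spt4 nor Spt5, the DSIF subunits, had a thresholded one. Away from their own promoters, osa carried the rank 33 peak in its intron 4, and mod(mdg4), a BTB insulator protein gene, an intronic peak with a signal of 219 (rank 238). A peak with a signal of 803 (rank 7) fell in the window of Caf1-55, 3952 bp from its start, but stood at the starts of Art3 and mRpS10, 120 and 137 bp away. The last 3 peaks were picked after their values were seen.

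**Figure D4:**
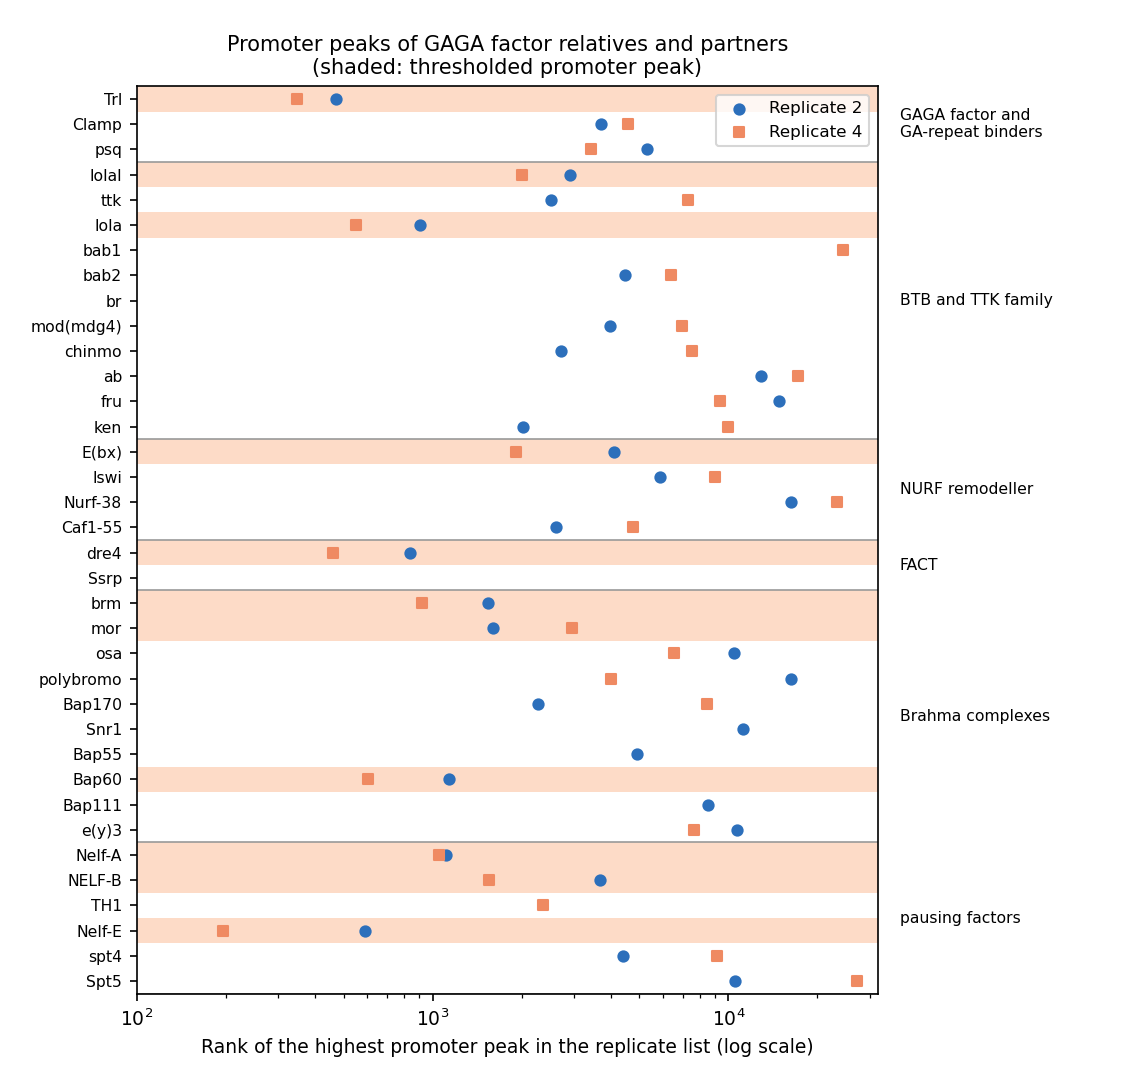
Promoter peaks of the 36 genes, by group: rank of the highest peak within 500 bp of a start in replicate 2 (circles) and replicate 4 (squares), on a log axis. Rows with a thresholded promoter peak are shaded, a gene without a point has no such peak in that list, and Trl had ranks of 473 and 349.

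Whether the GAGA factor's own motif counted as lying under a Trl peak depended on how far from the summit it was sought. In the 201 bases centred on the summit, 1 of the 7 windows, that at 14758300, held GAGAG, against 23.9% of all 2758 thresholded windows and 21.9% of the 10000 weakest pooled windows. In the whole deposited intervals, a reading added after the data were seen, 5 of the 7 held it, all but those of 14756095 and 14762413, against 42.1% of all thresholded and 38.4% of the weakest pooled intervals. The values that follow are for the 201-base windows. No Trl window held GAGAGAG, which contains GAGAG and was in 4.35% of thresholded windows. CACTG was in 3 of the 7, at 14757245, 14760400 and 14762413, and in 48.3% of thresholded against 31.4% of the weakest windows. TCAGT was in 2 (33.8% of thresholded windows), TATAAA in 2 (31.7%) and CGATA in 1 (30.8%). The other motifs had no match at Trl. They were CAACACTG, which contains CACTG (3.92%), TATCGATA, which contains CGATA (4.60%), GGTCACACT (2.07%), CAGGTA (3.77%), GCCAT (28.1%) and CAGCTG (9.75%). A match is a description of the letters in the window, and no match says only that those letters are not there.

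The strongest peak held few of these motifs, as did many peaks: 31.3% of thresholded windows had 1 of the 12 or none. Its window held a reversed TATAAA 24 bp from the summit and no other match. The paired peaks at 14756095 and 14756296 held none of the 12, as did 205 (7.43%) of thresholded windows. At 14757245 the CACTG lay 24 bp from the summit. The window at 14758300 held 2 GAGAG matches 81 and 86 bp from the summit, a TATAAA at 32 bp and a CGATA at 61 bp. GC content was 26.4% at the strongest peak, a value reached or undercut by 3.41% of thresholded windows, against a median of 36.3%. At the other 6 summits it ran from 31.8% at 14756095 to 45.3% at 14757245, the promoter peak.

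Most GAGAG matches of the peak cluster lay more than 100 bp from a summit. From 14755595 to 14762913, that is, from 500 bp before the first summit to 500 bp after the last, there were 37 GAGAG matches on either strand. Of these, 2 lay within 100 bp of a thresholded summit, 17 over 100 and up to 200 bp away and 18 farther, with a median distance of 176 bp. The density was 1.42 per kb within 100 bp of the summits and 5.92 per kb elsewhere in the stretch. The second value takes in the 17 matches at 100 to 200 bp, a distance mostly inside the deposited intervals. The density at that distance alone was not computed, so these values do not place GAGAG outside the peaks. For CACTG the density was 2.13 per kb within 100 bp and 1.52 per kb elsewhere, from 3 and 9 matches. The longest run of overlapping matches, 19 bases at 14757379 to 14757397, held 8 of them. It lay 43 bp upstream of the proximal start and 134 bp from the promoter summit, inside that peak's interval, in sequence that is intronic for transcripts begun farther upstream. A run as long was found in 12 of 2758 thresholded intervals (0.435%). The nearest GAGAG to the strongest summit was 176 bp away.

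**Figure D5:**
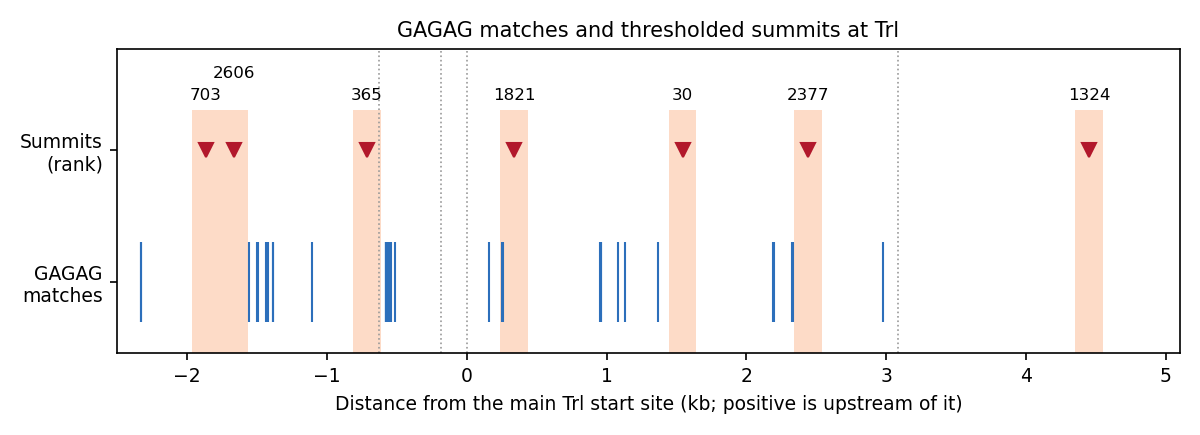
GAGAG matches on either strand (blue ticks) along the Trl peak cluster, by distance from the main start (kb, upstream positive), with the 7 thresholded summits as triangles labelled by rank, 100 bp either side of each shaded and start sites dotted. Of 37 matches, 2 fell in the shaded windows.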

How the data were processed

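Chromatin immunoprecipitation was sequenced from 2 biological replicates of 1 group, with no comparison between conditions. The authors deposited 3 kinds of peak list on dm6: one per replicate, one on pooled reads, and a thresholded list that, per the deposited text records, rests on the irreproducible discovery rate. Each list gives the authors' signal and −log10 q value per peak. No aligner, peak caller or signal scale is named there (not given in the sources used here), and read depth is unknown. Control libraries and dm3 lists were not used here.

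Summits were made 1-based and joined to Ensembl release 115 genes. A gene's window was its span and 5000 bp either side, a promoter peak lay within 500 bp of a start, and replicate peaks matched within 100 bp. Motifs were sought within 100 bp of summits in the Release 6 genome. Genes were named as members, as the 5 closest in rank to Trl, or as genes with as many peaks. Trl and all lists were chosen with earlier results of these data known. Counting steps were tested on simulated data (Python 3.11.15, numpy 2.4.6, scipy 1.17.1, matplotlib 3.10.9). Alternatives to windows, matching, list depth, merging and replicate use were tried.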

Additional observations from a re-analysis of the deposited data

How the results depend on the processing

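Of 59 alternative values computed for the counts and ranks, 42 stayed within the limit set for them and 17 moved. That limit is not given here, and values within it could still differ from the main one. Single motifs made up 25 of the 59, of which 8 moved. Several of these motifs had no match at Trl, which a narrower window could not change. The 42 therefore do not measure how stable the results are. Trl kept 4 peaks among the highest 1379 of the thresholded list, and 5 to 6 when 1 replicate list stood in for it. The promoter rank was then 349 to 473. The share of genes with as many peaks as Trl was 0.272% per kb and 0.222% in the highest 1379, and 0.186 to 0.452% from 1 replicate. Partner promoters with a peak fell to 7 of 36 in the highest 1379 and were 11 to 13 from 1 replicate. The share of all genes at those settings is not given here, so these counts have no background to be read against. Pairs of a Trl summit and a motif numbered 3 at 50 bp and 17 at 150 bp, against 9. Within 150 bp, 4 summits had GAGAG, within 50 bp none had, and 5 had it in the whole interval. Merging overlapping intervals, chosen after seeing the data, gave 6 regions at Trl. No paired analysis was possible because the design has 1 group. Unknown depth sets how far weak peaks can be ranked.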
